A study of Mus musculus with 30 samples.

Results

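The genes described here encode DOT1L, the AF10, ENL and AF9 proteins that bind it, and the core of the super elongation complex with its kinase P-TEFb. They are Dot1l, Mllt10 (AF10), Mllt1 (ENL), Mllt3 (AF9), Aff1 (AF4), Aff4, Ell, Ell2, Cdk9 and Ccnt1 (cyclin T1), 10 of the 21896 protein-coding genes in the RefSeq annotation of GRCm38, the assembly of mm10. They were chosen by name, as common fusion partners of MLL and members of the same complexes. Every peak with its summit inside one of these genes, or within 5 kb of it, was taken from 4 peak lists. The lists came from chromatin immunoprecipitation followed by sequencing in WT-MA9 cells. These are mouse acute myeloid leukaemia cells in which MLL-AF9 is stably expressed from the vector pMSCV-MLL-AF9-GFP and which were grown with IL3, IL6 and SCF. Menin was mapped in DMSO (11195 peaks) and in MI-503 (8 peaks), and UTX in DMSO (217 peaks) and in MI-503 (14231 peaks), in cells harvested on day 4 of treatment. Menin is the scaffold of the MLL1 and MLL2 histone methyltransferase complexes, UTX is a histone demethylase in the MLL3 and MLL4 complexes, MI-503 blocks the contact of Menin with MLL1, and DMSO is its vehicle. All 4 libraries carry the fusion, and each condition is 1 library, so no difference here has a replicate check.

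RNA polymerase II pauses shortly after it starts a gene, and P-TEFb, the kinase CDK9 with cyclin T1, releases it. The super elongation complex brings P-TEFb to chromatin on an AFF scaffold, together with an ELL elongation factor and ENL or AF9. ENL and AF9 also bind DOT1L, which methylates histone H3 at lysine 79 in the body of active genes, and AF10 supports that activity. Fusion of MLL to AF4, AF9, ENL, AF10 or ELL brings these complexes to genes that MLL binds, which is a common route to acute leukaemia.

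Menin was found at all 10 genes in vehicle, and UTX at 9 of them in MI-503. In the Menin DMSO list, 22 peaks lay at 10 of 10 genes, where 42.8% of all protein-coding genes had a peak by the same rule. In the UTX MI-503 list, 25 peaks lay at 9 genes, against 48.2% of all protein-coding genes, and Aff4 had none. The 10 genes are long, with a median of 59.0 kb against 17.1 kb for all, and a longer gene has more room for a peak. Among the 14871 protein-coding genes no shorter than the shortest of the 10 and no longer than the longest, the shares were 50.0% in the Menin DMSO list, 55.9% in UTX MI-503, 0.0269% in Menin MI-503 and 1.23% in UTX DMSO. Of the 10 genes, 5 had 3 or more Menin DMSO peaks, against 2.67% of all, and 6 had 3 or more UTX MI-503 peaks, against 6.22% of all. Both shares are over genes of all lengths. The share among genes of like length was not computed, and how far length adds to this gap was not tested. Some of the peaks behind these counts lay at the starts of neighbouring genes. With each peak given to its nearest gene alone the counts were 3 and 4 genes. With a 1 kb window the counts were 2 for Menin and 4 for UTX, and with a fold of at least 5 they were 3 and 4. The shares of all genes under these stricter settings were not computed, so these counts have no like share beside them. None of the 10 genes had a peak in the Menin MI-503 list, where 0.0183% of all genes had one, or in the UTX DMSO list, where 1.07% had one. With so few genes in those lists, a count of 0 among 10 genes says little about these genes. The nearest UTX DMSO summit to any annotated start of the 10 genes was 327274 bp from that of Ell.

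The deposited fold enrichment compares the fragments over a peak's summit with the local background of the input, each with 1 added. Inputs of WT-MA9 cells are labelled for DMSO only, also for the lists in MI-503. The fold of the 22 Menin DMSO peaks ran from 4.00 to 22.3 with a median of 7.22, against 5.87 over the whole list, and 17 of the 22 were above that list median. The 25 UTX MI-503 peaks ran from 4.44 to 23.8 with a median of 7.74, against 7.11 over the list, and 14 were above it. Taking the highest peak of each gene, the median was 9.68 for Menin DMSO against 7.14 over the 9378 genes with a peak, and 10.9 for UTX MI-503 against 9.85 over 10562 genes. This comparison is not matched for gene length or number of peaks, and genes with a peak had a median of 1 peak in either list. The highest UTX peaks of Dot1l and Ccnt1 lay at the starts of neighbouring genes. With peaks within 1 kb of a start alone, the medians were 7.84 against 7.31 for Menin DMSO and 10.3 against 10.2 for UTX MI-503. Between 15 and 96 fragments lay over the summits of the Menin peaks, and between 8 and 46 over those of the UTX peaks. The background under these peaks was 1.00 to 2.79 times the lowest of its list. At several peaks of both lists it was that lowest value, so the folds of such peaks within a list differ by fragments alone. Intervals given below are exact 95% Poisson intervals of the fragments over the summit. They cover counting error only, take the background as fixed, and belong to the highest point of each peak, so they are too narrow.

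**Figure D1:**
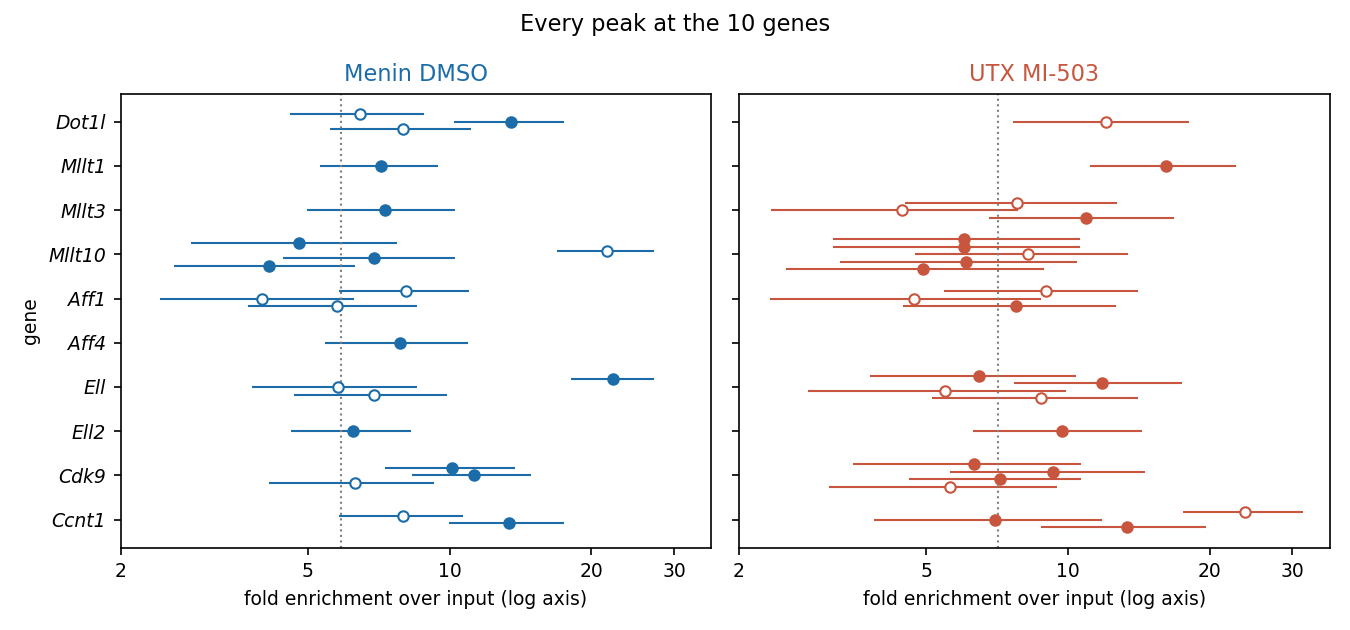
Fold enrichment (log axis) of every Menin DMSO peak (left) and UTX MI-503 peak (right) at the 10 genes, 1 point a peak. Filled points have their summit within 1 kb of an annotated start of the gene, bars are 95% Poisson intervals, and the dotted lines mark the list medians of 5.87 and 7.11; Aff4 has no UTX peak.

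At 1 kb from an annotated start, 12 of the 22 Menin DMSO and 15 of the 25 UTX MI-503 peaks counted as start peaks, and at 500 bp 8 and 9 did. In the Menin DMSO list, 9 of the 10 genes had a summit no farther than 1 kb from an annotated start, against 33.5% of the 17491 protein-coding genes with a start in the promoter table, and in the UTX MI-503 list 8 had one, against 39.1%. In UTX DMSO the count was 0 of 10, against 0.863%. Both were found at the starts of 7 genes (Mllt10, Mllt1, Mllt3, Ell, Ell2, Cdk9 and Ccnt1), where 30.7% of all genes had both. Dot1l and Aff4 had Menin alone at the start, as did 2.74% of all genes, and Aff1 had UTX alone, as did 8.36%. The Aff1 case rests on which start is used, since a Menin and a UTX peak lay at the outer 5' end of that gene, which the promoter table does not list as a start. With that end counted as a start, a setting added after seeing the data, Menin was at the start of 10 of 10 genes and UTX of 8. The share of all genes under that wider rule was not computed.

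**Figure D2:**
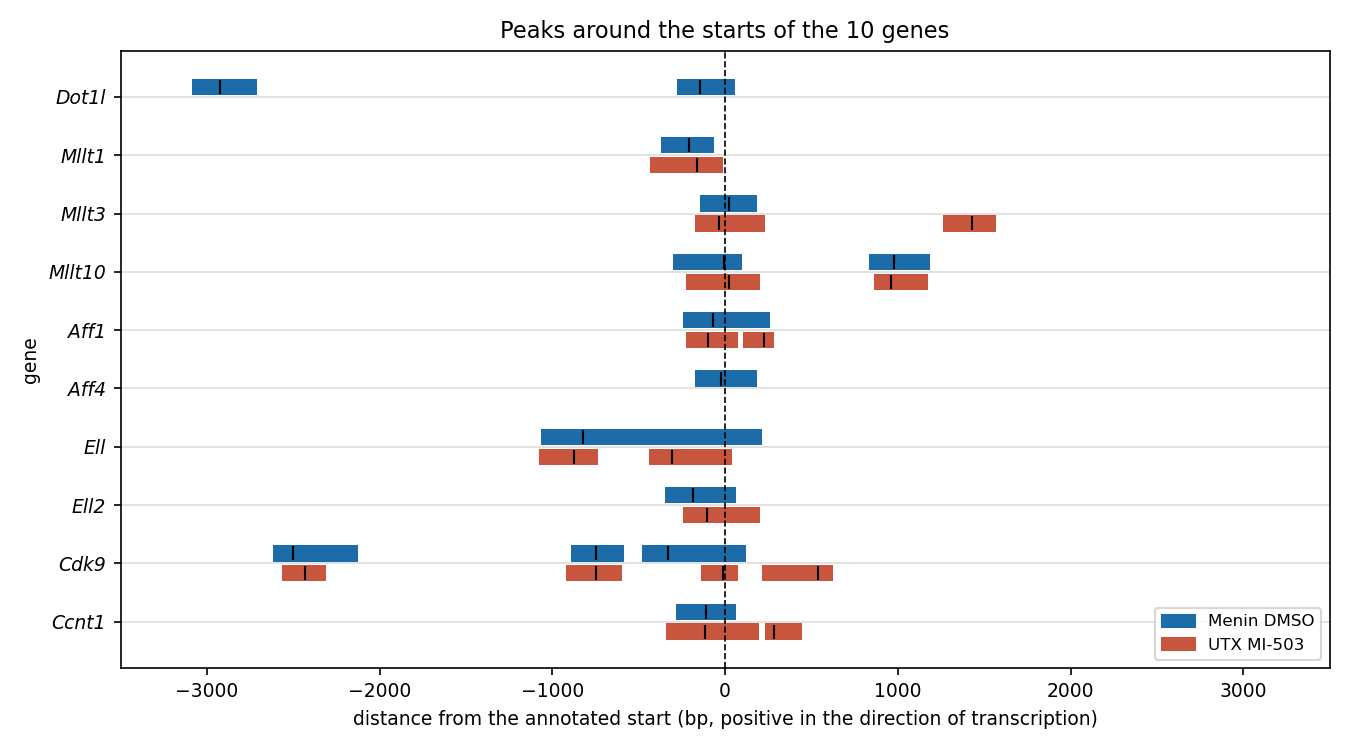
Menin DMSO peaks (blue) and UTX MI-503 peaks (red) as bars to scale, with the summit as a black tick, by distance in bp from 1 start of each gene. For genes with several annotated starts the one nearest to a Menin DMSO summit was used, and for Aff1 the outer 5' end of the gene; peaks beyond the ends of the axis are not drawn, and no UTX bar lies at the starts of Dot1l and Aff4.

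The sequences before the starts are shown because the peaks lay over or beside them, for the 6 genes with both proteins at the start and the highest Menin fold there, and, chosen after their values were seen, for Ell2 with 3 CCAAT motifs and for Dot1l and Aff4 with Menin alone. Each runs 5' to 3' on the strand of the gene over the 250 bases before the start (RefSeq, GRCm38.p6). Capitals mark CCAAT or its reverse ATTGG, the motif of NF-Y, the GC box GGGCGG or CCGCCC, the E box CACGTG and the TATA box TATAAA or TTTATA, and matches that touch or overlap run together.
Ell, chr8:70539425-70539674, plus strand: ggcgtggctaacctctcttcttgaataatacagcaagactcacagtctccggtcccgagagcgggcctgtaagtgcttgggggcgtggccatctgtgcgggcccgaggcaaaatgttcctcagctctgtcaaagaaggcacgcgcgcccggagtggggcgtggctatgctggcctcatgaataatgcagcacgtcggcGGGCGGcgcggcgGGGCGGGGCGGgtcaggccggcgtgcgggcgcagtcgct
Ccnt1, chr15:98567737-98567986, minus strand: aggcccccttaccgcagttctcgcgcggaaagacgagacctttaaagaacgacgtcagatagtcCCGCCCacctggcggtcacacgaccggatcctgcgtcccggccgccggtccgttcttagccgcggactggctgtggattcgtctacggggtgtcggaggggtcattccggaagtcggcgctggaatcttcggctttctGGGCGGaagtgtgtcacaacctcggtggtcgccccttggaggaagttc
Cdk9, chr2:32712785-32713034, minus strand: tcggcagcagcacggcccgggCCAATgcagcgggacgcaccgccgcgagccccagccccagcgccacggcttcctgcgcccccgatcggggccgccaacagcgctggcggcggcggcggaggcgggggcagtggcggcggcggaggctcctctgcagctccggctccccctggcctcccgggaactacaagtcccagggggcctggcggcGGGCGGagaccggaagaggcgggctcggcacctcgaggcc
Mllt3, chr4:88033408-88033657, minus strand: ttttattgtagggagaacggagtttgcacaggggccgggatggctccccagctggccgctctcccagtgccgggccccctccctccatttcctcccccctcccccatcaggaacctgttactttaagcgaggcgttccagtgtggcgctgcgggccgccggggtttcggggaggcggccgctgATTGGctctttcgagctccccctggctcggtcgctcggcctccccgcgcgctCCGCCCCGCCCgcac
Mllt1, chr17:56935389-56935638, minus strand: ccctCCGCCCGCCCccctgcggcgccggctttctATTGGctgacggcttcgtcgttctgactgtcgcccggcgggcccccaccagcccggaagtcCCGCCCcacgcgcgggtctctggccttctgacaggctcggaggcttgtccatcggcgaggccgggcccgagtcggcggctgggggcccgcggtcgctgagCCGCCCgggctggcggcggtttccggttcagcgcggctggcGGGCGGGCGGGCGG
Mllt10, chr2:18064335-18064584, plus strand: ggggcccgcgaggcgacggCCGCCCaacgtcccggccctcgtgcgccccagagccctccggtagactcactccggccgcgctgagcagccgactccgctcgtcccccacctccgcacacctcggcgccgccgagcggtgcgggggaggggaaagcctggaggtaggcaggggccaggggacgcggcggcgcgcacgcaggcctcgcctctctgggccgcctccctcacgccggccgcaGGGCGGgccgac
Ell2, chr13:75707234-75707483, plus strand: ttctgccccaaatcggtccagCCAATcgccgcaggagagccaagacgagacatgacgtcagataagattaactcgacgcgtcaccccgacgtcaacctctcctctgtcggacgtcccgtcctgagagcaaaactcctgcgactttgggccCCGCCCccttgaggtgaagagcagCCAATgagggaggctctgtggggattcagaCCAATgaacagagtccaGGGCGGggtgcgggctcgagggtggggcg
Dot1l, chr10:80754953-80755202, plus strand: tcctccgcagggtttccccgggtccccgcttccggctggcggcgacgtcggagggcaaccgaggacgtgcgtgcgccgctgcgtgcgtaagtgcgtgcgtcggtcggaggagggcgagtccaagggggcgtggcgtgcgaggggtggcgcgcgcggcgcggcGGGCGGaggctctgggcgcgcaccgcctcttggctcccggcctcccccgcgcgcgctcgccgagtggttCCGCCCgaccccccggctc
Aff4, chr11:53350517-53350766, plus strand: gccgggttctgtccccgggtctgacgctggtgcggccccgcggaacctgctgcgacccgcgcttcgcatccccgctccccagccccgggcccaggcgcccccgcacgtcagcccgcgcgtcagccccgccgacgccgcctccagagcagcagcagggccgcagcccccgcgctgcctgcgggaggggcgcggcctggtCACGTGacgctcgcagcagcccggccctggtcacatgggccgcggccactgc
All 10 genes matched the promoter table, and Aff1, the gene not printed, was searched too. CCAAT or its reverse was in 4 of the 10 windows, against 35.4% of the 21262 windows of protein-coding genes in the table and 40.7% of the 6796 windows of genes with both proteins at the start. The Ell2 window held CCAAT 3 times, with first bases at -229, -76 and -46 counted from the start, and 3.36% of all windows held 3 or more. Its UTX MI-503 summit lay 108 bp before the start and its Menin DMSO summit 187 bp before it. The reverse motif ATTGG began at -216 in Mllt1 and at -67 in Mllt3, and CCAAT began at -229 in Cdk9. The GC box was in 9 of 10 windows, against 42.6% of all and 65.2% of those of genes with both proteins, and 7 times in Mllt1. The E box was found in Aff4 alone, against 6.63% of all windows and 10.1% of those of genes with both proteins. No TATA box was found, against 11.6% and 5.06%. The windows were rich in G and C, with a median of 78.0% against 55.6% over all, and GC boxes are more frequent in such sequence. A match gives the letters only and was not tested as a binding site.

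DOT1L itself had one of the higher Menin peaks of the group and no UTX peak at its start. The Dot1l start peak (chromosome 10, 80754923 to 80755256) had a Menin DMSO fold of 13.5 (10.2 to 17.5), from 55 fragments, and ranked 1048 of 11195. A further Menin peak 2924 bp before the start had a fold of 6.45 and no UTX peak over it. The nearest UTX MI-503 summit was 12872 bp from the Dot1l start. The 5 kb rule gave Dot1l a UTX peak of 12.0-fold (7.66 to 18.1), which with a Menin peak of 7.98-fold lay beyond the far end of the gene. Those summits were 339 bp and 14 bp from the start of Plekhj1, the next gene, nearer to that start than to the start of Dot1l.

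AF10, ENL and AF9, the proteins that bind DOT1L, are encoded by genes with both proteins at their starts. Mllt10 had 4 Menin DMSO peaks and 5 UTX MI-503 peaks, the most of the 10 genes in either list, in 2 clusters. Adjacent calls were counted separately, as for the UTX peaks ending at 18056424 and beginning at 18056441. The first cluster lay 1216 to 1819 bp inside the outer 5' end of the gene, and the second lay from 7 bp before to 976 bp after an annotated start. The highest Menin peak of Mllt10 (chromosome 2, 18056805 to 18057205) belonged to the first cluster, at 21.6-fold (16.9 to 27.1), from 71 fragments, and ranked 263. A UTX peak with its summit 17 bp away had 8.21-fold (4.74 to 13.4), from 14 fragments, and ranked 5601 of 14231. The other 3 Menin peaks of Mllt10 had folds of 4.14 to 6.89 and the other 4 UTX peaks 4.93 to 6.07. The Menin summit of that 21.6-fold peak was 1234 bp from an annotated start, just outside the 1 kb used for starts.

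Mllt1 and Mllt3, which encode the related YEATS domain proteins ENL and AF9, had Menin start folds with overlapping intervals. The Mllt1 start peak (chromosome 17, 56935456 to 56935758) had a Menin DMSO fold of 7.16 (5.30 to 9.47), and the Mllt3 start peak (chromosome 4, 88033225 to 88033552) had 7.27 (4.98 to 10.3). In UTX MI-503 the Mllt1 start peak had 16.2-fold (11.2 to 22.8), rank 1655, and the Mllt3 start peak 10.9-fold (6.81 to 16.8), rank 3601, and these intervals overlapped. Mllt1 had no other peak. Mllt3, at 263.5 kb the longest of the 10 genes, had 2 further UTX MI-503 peaks without Menin. One lay 1429 bp after the start at 4.44-fold, and the other lay 119517 bp inside the outer 5' end at 7.80-fold (4.50 to 12.7). The cells also carry AF9 sequence in the MLL-AF9 vector, and whether reads of the vector add to peaks of Mllt3 was not tested. No peak of the 4 lists lay deeper in the gene than that.

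The AFF scaffolds differed in UTX peaks. Aff1 had its highest Menin DMSO peak at the outer 5' end (chromosome 5, 103692117 to 103692622), at 8.10-fold (5.82 to 11.0), with 2 UTX MI-503 peaks over it at 8.99-fold (5.44 to 14.1) and 4.71-fold. Farther in, 378 bp before an annotated start of Aff1, UTX MI-503 had a peak of 7.74-fold (4.47 to 12.6), and Menin had none within 1 kb. A pair of Menin peaks without UTX lay 6235 and 6373 bp after the nearest annotated start, at 4.00-fold and 5.76-fold. The first ended at 103760853 and the second began at 103760857. They may be 1 region called as 2 peaks, and they count as 2 in all peak counts here. Aff4 had a single Menin DMSO peak, at its start (chromosome 11, 53350594 to 53350951), with 7.84-fold (5.44 to 11.0) from 32 fragments, and ranked 3439. The nearest UTX MI-503 summit was 50170 bp from the Aff4 start. Menin DMSO without UTX MI-503 by the 5 kb rule, as at Aff4, was found at 4.84% of all protein-coding genes.

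Ell, which encodes the elongation factor ELL, had the widest Menin peak of the group and the highest in fold, with an interval that overlapped that of the highest Mllt10 peak. The peak (chromosome 8, 70538611 to 70539887) was 1277 bp wide, wider than 99.9% of the Menin DMSO list, and had 22.3-fold enrichment (18.1 to 27.1) from 96 fragments, with a -log10 q of 97.5. It ranked 226 of 11195. It began before the start and its summit lay 823 bp before it. In UTX MI-503 the same ground held 2 separate peaks, of 6.46-fold (3.80 to 10.4) with its summit 878 bp before the start, and of 11.8-fold (7.68 to 17.5) with its summit 310 bp before the start. The Menin summit was 55 bp from that of the lower UTX peak and 513 bp from that of the higher one. A weaker Menin peak 10221 bp after the start, at 5.80-fold, had no UTX peak. Beyond the far end of Ell, 1 Menin and 2 UTX peaks had summits 42 to 570 bp from the start of the next gene, Isyna1.

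Ell2, the paralog of Ell, had 1 peak of each protein. The Menin DMSO peak (chromosome 13, 75707133 to 75707547) had 6.25-fold (4.61 to 8.29), the lowest start value of the 9 genes with Menin at the start. The UTX MI-503 peak had 9.70-fold (6.30 to 14.3), and the summits were 79 bp apart. The Menin intervals of Ell and Ell2 did not overlap, while their UTX start intervals did. The Ell2 Menin summit had 46 fragments, and the background there was 2.79 times the list's lowest. Its rank was 5103 by fold and 3593 by -log10 q.

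The P-TEFb genes both had strong Menin peaks. Cdk9, at 7.00 kb the shortest of the 10 genes, had 3 Menin DMSO and 4 UTX MI-503 peaks, none of them closer to the annotated start of another gene. The Menin peaks had summits 331, 745 and 2500 bp before the start, at 10.1-fold (7.28 to 13.8), 11.3-fold (8.34 to 14.9) and 6.31-fold (4.13 to 9.26). UTX peaks lay over all 3, at 9.29-fold (5.63 to 14.6), 7.16-fold (4.60 to 10.7) and 5.60-fold (3.10 to 9.47). At the middle peak (chromosome 2, 32713371 to 32713678) the Menin and UTX summits were 1 bp apart. The remaining UTX peak lay 540 bp after the start, at 6.32-fold, without Menin.

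Ccnt1 had a start peak of each protein at the same place. The Menin DMSO peak (chromosome 15, 98567676 to 98568018) had 13.4-fold (9.99 to 17.5) from 50 fragments and ranked 1080. The UTX MI-503 peak had 13.4-fold (8.75 to 19.6) from 24 fragments and ranked 2520, and the summits were 4 bp apart. A smaller UTX peak 282 bp after the start had 7.00-fold. The highest UTX value that the rule gave to any of the 10 genes, 23.8-fold (17.5 to 31.5), rank 476, was assigned to Ccnt1 but lay 4321 bp beyond its far end and 100 bp from the start of Kansl2. A Menin peak of 7.96-fold lay there too, 62 bp from that start. This pair lay closest to the 5 kb limit on the inside, and the closest on the outside were beyond Aff4, at 8778 bp with 4.62-fold for Menin DMSO and at 9249 bp with 10.6-fold for UTX MI-503.

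With starts taken to 1 kb, the order of the Menin DMSO fold was Ell (22.3), Dot1l (13.5), Ccnt1 (13.4), Cdk9 (11.3), Aff4 (7.84), Mllt3 (7.27), Mllt1 (7.16), Mllt10 (6.89) and Ell2 (6.25). The interval of Ell did not overlap that of Dot1l, and the other neighbours in this order overlapped. Of all 36 pairs, 13 did not overlap, namely Ell above each of the others, Dot1l and Ccnt1 above Mllt1 and Ell2, and Cdk9 above Ell2. This order depends on the limit. At 3 kb Mllt10 came next to Ell with its peak of 21.6-fold, and their intervals overlapped. At 500 bp Ell had no Menin peak at its start, and the interval of Cdk9, at 10.1-fold (7.28 to 13.8), overlapped that of Ell2 (4.61 to 8.29). In UTX MI-503 the order was Mllt1 (16.2), Ccnt1 (13.4), Ell (11.8), Mllt3 (10.9), Ell2 (9.70), Cdk9 (9.29), Aff1 (7.74) and Mllt10 (6.07), and all neighbours overlapped. Of these 28 pairs, Mllt1 above Mllt10 was the one that did not overlap. The median start fold in the Menin DMSO list was 7.84, against 7.31 over the 5855 genes with a start peak, and in the UTX MI-503 list it was 10.3, against 10.2 over 6839 genes. The genes whose start values in these 2 libraries were nearest to those of Ell were Med6 (21.9-fold and 11.7-fold), Edem1 (21.3-fold and 11.9-fold) and Tbl2 (22.1-fold and 11.6-fold), at 0.395 to 1.10 percentile points among 5376 genes with both.

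Within its own list, a gene's place could differ between the proteins. The highest Menin peak of Mllt10 was above 97.7% of its list and the highest UTX peak above 59.0% of its own. For Ell these were 98.0% and 77.5%, and for Cdk9 85.4% and 66.1%. The order was the other way for Mllt1, at 63.8% for Menin and 88.4% for UTX, for Mllt3, at 64.7% and 74.0%, and for Ell2, at 54.3% and 68.5%. Antibody and treatment differ together between these lists, so these places describe 2 lists and no change.

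**Figure D3:**
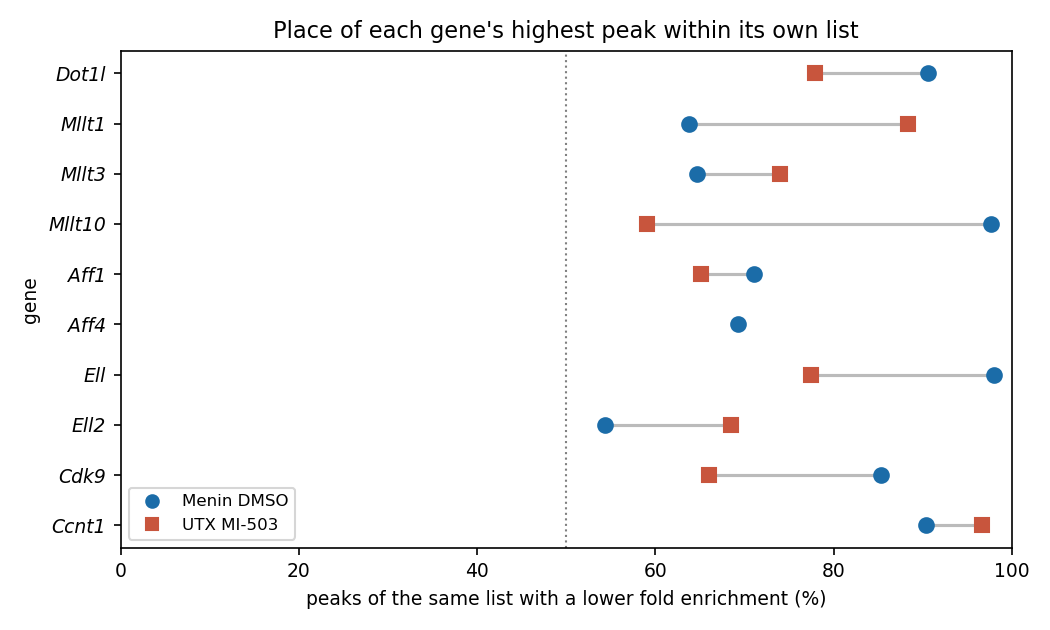
Share of peaks of the same list (%) with a lower fold than the highest peak of each gene, for Menin DMSO (blue circles) and UTX MI-503 (red squares). All points lie above 50%, from 54.3% (Ell2, Menin) to 98.0% (Ell, Menin). Each point is the highest peak of its gene set against single peaks, so 50% is not the place of a typical gene. Among all genes with a peak, the median highest fold was 7.14 in the Menin list and 9.85 in the UTX list. Those genes were not matched to the 10 for length or number of peaks. Ell2 was below the Menin value, and Mllt1, at 7.16-fold, was close to it. Mllt10, Aff1, Ell2 and Cdk9 were below the UTX value. The remaining points were above these values. The UTX points of Dot1l and Ccnt1 are peaks at the starts of neighbouring genes.

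Where both proteins had peaks, the summits were close. Of the 22 Menin DMSO peaks, 16 shared 1 bp or more with a UTX MI-503 peak, or 72.7% (exact Clopper-Pearson 95% interval 49.8 to 89.3%), against 66.4% of the whole list. Menin DMSO peaks overlapped 18 of the 25 UTX MI-503 peaks (72.0%, 50.6 to 87.9%), against 53.4% of the list. Peaks of 1 gene are not independent of each other. The distance from a Menin summit to the nearest overlapping UTX summit had a median of 49.0 bp over the 16 peaks, with 13 within 100 bp. Over 7431 such peaks in the list the median was 38.0 bp. Only overlapping peaks were measured, and median widths were 272 bp (Menin DMSO) and 264 bp (UTX MI-503). Short distances follow in large part from that choice. The 6 Menin peaks without UTX were those at the Dot1l and Aff4 starts, the upstream Dot1l peak, the inner Aff1 pair and the peak inside Ell.

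Of 30 other elongation genes in 5 lists, 24 (80.0%) had Menin in DMSO and 26 (86.7%) UTX in MI-503 by the 5 kb rule. Fold values below are the highest peak by the 5 kb rule, first Menin DMSO and then UTX MI-503. With 10 other fusion partners of MLL added, the counts were 31 (77.5%) and 32 (80.0%) of 40 genes, against 42.8% and 48.2% of all genes. Menin without UTX by this rule was found at 4.84% of all genes. The shares of all genes with both, UTX alone or neither were not computed by this rule. Those counts in the lists below therefore have no like share beside them. Among 6 paralogs and partners in the super elongation complex, 4 had both, with Ell3 at 6.88-fold and 5.25-fold, Ccnt2 (cyclin T2) at 14.6-fold and 18.6-fold and Eaf1, an ELL-associated factor, at 3.96-fold and 9.67-fold, while Aff2 and Aff3 had neither. All 5 genes that control P-TEFb had both. Hexim1, its inhibitor, had 9.04-fold and 25.7-fold, Hexim2 had 5.58-fold and 15.4-fold, and Larp7, which protects the inhibitory 7SK RNA, had 16.9-fold and 21.3-fold. Mepce, the 7SK capping enzyme gene, was the only one of the 40 with a UTX DMSO peak, at 9.81-fold, and none had a Menin MI-503 peak.

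Of 7 pausing and elongation factors, 6 had both and Supt6 had UTX alone, at 5.68-fold. As above, counts of both, UTX alone or neither have no like share of all genes beside them. Supt4a and Supt5, which encode the DSIF subunits, had 10.4-fold and 13.7-fold, and 7.24-fold and 14.8-fold. Of 6 PAF1 complex genes, 3 had both, Cdc73 had UTX alone at 6.32-fold, and Leo1 and Rtf1 had neither. Paf1 had 7.31-fold and 20.8-fold, and Ctr9 8.28-fold and 9.92-fold. All 6 genes of the CDK12 and CDK13 kinases and the little elongation complex had both. Cdk12 had 6.02-fold and 19.8-fold, Cdk13 8.80-fold and 20.8-fold, and their cyclin gene Ccnk 28.3-fold and 13.1-fold. Of 10 other fusion partners of MLL, 7 had Menin and 6 UTX, 5 of them both. Mllt6 (AF17), also a DOT1L partner, had 12.6-fold and 6.76-fold. Mllt11 had 4.91-fold and 14.1-fold, and Eps15 had Menin alone at 5.95-fold. Abi1 also had Menin alone, Ep300 had UTX alone, and Afdn and Septin6 had neither.

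**Figure D4:**
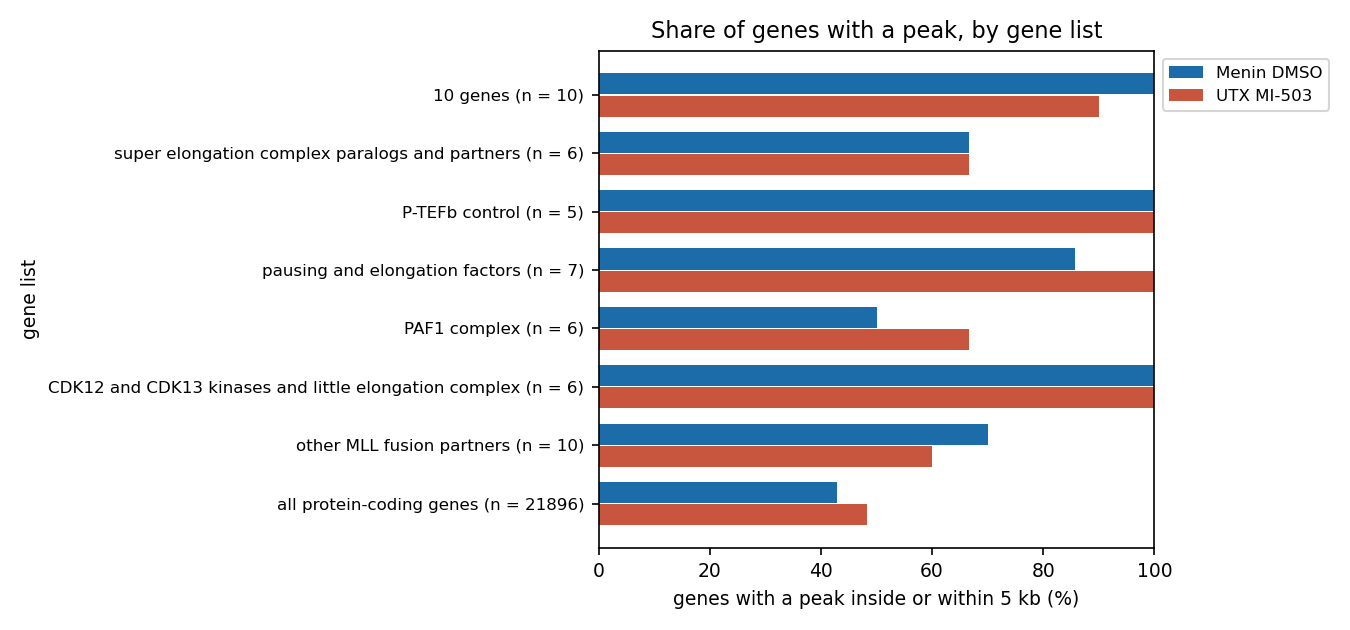
Share of genes (%) with a Menin DMSO peak (blue) or a UTX MI-503 peak (red) inside or within 5 kb, for the 10 genes, the 6 other lists and all 21896 protein-coding genes. The 10 genes stand at 100% and 90%, the PAF1 complex genes at 50.0% and 66.7%, and all genes at 42.8% and 48.2%.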

How the data were processed

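MACS2 and mm10 are named in the submitters' processing notes, without a version of the caller. The aligner, the filters on reads and the q cutoff were not given in the sources used here. The authors made each list from 1 library against an input, and the peak names give both lists of an antibody the same input. The inputs labelled for WT-MA9 cells are from DMSO only, so no input matched for treatment is labelled for the MI-503 lists. The deposited fold is the ratio of summit pileup to local background, each plus 1. The deposited -log10 values are of the p-value and q-value, and the deposited score is 10 times -log10 q without decimals. The other 26 of the 30 libraries the labels describe were not used here. From fold and p, pileup and background were solved for every Menin DMSO and UTX MI-503 peak, and pileups were whole within 0.01 in 100% of both lists. These are the fragments printed; absolute depth is unknown. Genes came from the RefSeq table and starts and strands from the promoter table (both GRCm38.p6). Peaks were ranked by fold and positions count from 1. A gene could take several peaks, and no peak was taken by more than 1 of the 10 genes. Adjacent peaks of a list were not merged. Python 3.11.15, pandas 2.3.3 and SciPy 1.17.1 were used, and the code was tested on simulated data. The 10 genes and the 6 lists were chosen with earlier results of these data known. All 10 genes are named with every peak; of the other lists, the first 3 genes with a peak in list order are given with values, and Mepce was added after its value was seen. All 40 list genes were matched, 2 by an older symbol. With 1 library a condition there was no test and no p-value. Alternatives were run for the windows, the q and fold minimum, the assignment of peaks, the definition of overlap and the list length.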

Additional observations from a re-analysis of the deposited data

How the results depend on the processing

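The counts of genes and peaks and the overlap shares were recomputed under other settings, 119 times in all, and in 115 a count came within 1.5 times its reported value or a share within its interval. The other 4, added after seeing the data, were the genes with 3 or more Menin DMSO peaks, which fell from 5 to 3 with a fold of at least 5 or with the nearest gene alone and to 2 with a 1 kb window, and the UTX MI-503 peaks at starts, which fell from 15 to 9 with a 500 bp limit. The 115 include the counts of 0 in the Menin MI-503 list (8 peaks) and the UTX DMSO list (217 peaks), which had little room to move. They also include falls from 6 to 4 in the genes with 3 or more UTX MI-503 peaks, which only reach the 1.5 limit. Those falls came with a -log10 q or a fold of at least 5, a 1 kb window, the nearest gene alone or the shortened UTX list. The Menin DMSO peaks at starts fell from 12 to 8 with a 500 bp limit, which also only reaches the 1.5 limit. All 10 genes kept at least 1 Menin DMSO peak in each setting run. The UTX MI-503 count fell from 9 to 8 genes with a 1 kb window or with each peak given to its nearest gene alone, and rose to 10 with a 10 kb window. With at least 50% of both peaks shared, the overlap was 59.1% of Menin and 52% of UTX peaks. The start counts ran from 8 to 10 genes for Menin and were 8 for UTX throughout; the setting with the outer 5' end as a start was also added then. Ranked by -log10 q, 1 of 19 ranks moved by over 1.5 times, that of Mllt10 in Menin DMSO, from 263 to 496. No paired analysis was possible because each condition has 1 library and no test was made. Since read numbers are unknown, a missing peak shows no more than that none was called at this depth.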
